A study of Mus musculus with 3 samples.

Results

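The Krüppel-like factor (Klf) genes were examined for Ets-1 occupancy in Min6 cells, an insulin-secreting line from a mouse insulinoma, with a strong distal region of Klf5 as the starting point. Of the 543367 regions in the deposited comparison table, 123 name 1 of 10 Klf genes (Klf5, Klf12, Klf3, Klf4, Klf6, Klf7, Klf9, Klf10, Klf11 and Klf13) as their gene. Klf5 has 8 of these regions, Klf12 has 89 and Klf9 has none. Klf5 was chosen because of its read counts with AdEts1, so those counts are given as a description. The assay was ChIP-seq with an Ets-1 antibody and paired reads. One library came from cells given AdEts1, an adenovirus for Ets-1 overexpression, and another from cells given AdGFP, the control adenovirus. The remaining library is input chromatin, whose virus the labels do not state. All cells were grown in 25 mM glucose with 15% serum, and the virus was applied for 24 h. Cell identity was not checked here, since these files hold no expression values.

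Klf proteins are transcription factors with zinc fingers that bind GC-rich and CACCC-type DNA, and together with the Sp factors they form one family. Klf5 is known for driving proliferation of epithelial cells. Ets-1 is the founding member of the ETS family, whose DNA-binding domain recognises a GGAA core. It is known to bind inverted arrangements of such sites at some promoters. The order and spacing of those sites were not compared with the arrangement described below. Overexpression itself is not measured by these files: 15 regions name the Ets1 gene, none of them exonic, and none holds more than 2 reads in either precipitated library.

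The deposited counts and scaled values imply 1938473 reads in the AdEts1 library, 1775757 in the AdGFP library and 3937471 in the input. The regions of the table hold 42.8%, 54.8% and 2.96% of these reads. With 1 library in each group, differences could not be checked against replicates, and p-values are not given. Ratios were taken after dividing reads by these totals. Their 95% intervals (exact binomial) were computed on fragments, at 2 reads to a fragment, also for the input, where this makes them wider than counting reads would. All intervals and the floor of 3 reads, used where a library holds fewer, cover counting error only, since no molecular identifiers are recorded and PCR copies are not independent molecules. Coordinates are those of mm10 as the comparison table gives them; positions in the peak lists can differ from them by 1 base.

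The Klf5 distal region lies at chr14:99324530-99325536 and is 1007 bp wide. It is annotated as distal intergenic, 25.4 kb beyond the start of the Klf5 transcript that the table cites and 25.8 kb beyond the start of the gene. In GENCODE M21 it overlaps no protein-coding gene. It begins 9.49 kb after the end of Klf5, and the next coding gene on its other side, Klf12, is 545 kb away. Its GC content is 46%, and 8.24% of it is masked as repeat in the reference genome. The authors placed 2 summits in it, 511 bp apart. The sequence around the first summit is shown because it holds an inverted arrangement of ETS words. Here an ETS word is CAGGAAGT or CCGGAAGT on either strand, and capitals mark every match. All sequences are plus strand of GRCm38, 5′ to 3′, from the RefSeq assembly.

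Klf5 distal, first summit, chr14:99324579-99324878: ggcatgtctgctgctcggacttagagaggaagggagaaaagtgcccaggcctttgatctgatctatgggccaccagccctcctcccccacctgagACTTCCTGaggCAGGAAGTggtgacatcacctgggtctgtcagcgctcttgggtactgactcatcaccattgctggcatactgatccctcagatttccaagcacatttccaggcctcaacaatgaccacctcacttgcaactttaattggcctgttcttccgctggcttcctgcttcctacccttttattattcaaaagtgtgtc

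Klf5 distal, further word, chr14:99324996-99325045: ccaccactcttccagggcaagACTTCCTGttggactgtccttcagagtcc

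Klf5 distal, second summit, chr14:99325190-99325289: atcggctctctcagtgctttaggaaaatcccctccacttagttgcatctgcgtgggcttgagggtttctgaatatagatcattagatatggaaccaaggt

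The region holds 3 ETS words. A minus-strand word at chr14:99324674-99324681 and a plus-strand word at chr14:99324685-99324692 lie in inverted order, pointing away from each other, with 3 bases between them. Their middles lie 51 and 40 bp before the first summit. The further word, on the minus strand at chr14:99325017-99325024, lies between the summits. Another plus-strand word starts at position 99324529, 1 base before the region, and is not counted among the 3. The 100 bp shown at the second summit hold no match. A match of letters is not in itself a binding site.

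**Figure D1:**
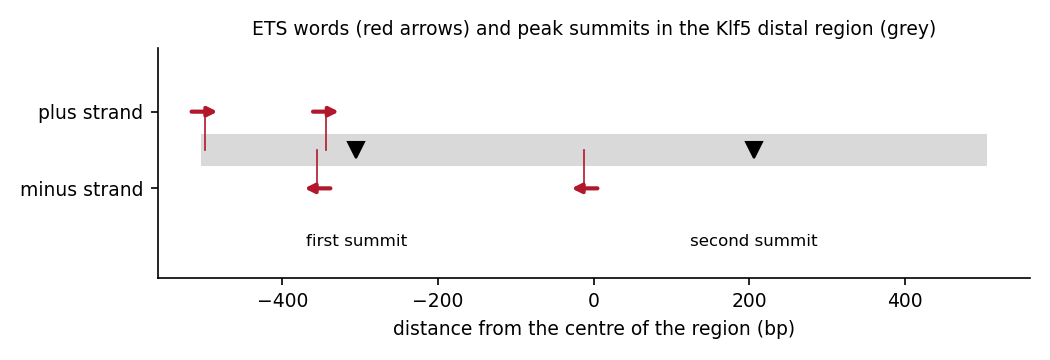
Map of the Klf5 distal region, with the distance from its centre in bp on the horizontal axis and the strand on the vertical axis. The grey bar is the region, red arrows are ETS words pointing along their strand (not to scale in length), including the one that starts 1 base before the region, and black triangles are the authors' summits; the inverted words sit beside the first summit, and no word sits at the second.

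Regions with several ETS words were rare. At least 1 word occurred in 1.89% of the 542768 compared regions on chromosomes 1 to 19 and X, and 3 or more in 14 of them. Since the Klf5 region is wide, regions of 900 to 1100 bp are the closer comparison: 6.38% of 752 such regions held a word and 2 held 3 or more. A word occurred in 2.35% of the regions with 20 or more AdEts1 reads, and equally in 2.35% of those with 20 or more AdGFP reads. The other 13 regions with 3 or more words, at a median width of 249 bp, held a median of 1 read with AdEts1 (highest 11) and 1 with AdGFP (highest 6). An inverted arrangement, meaning a minus-strand word followed by a plus-strand word within 10 bases, was found in 5 regions in all. This search was defined after the Klf5 sequence had been seen. The sequences of 4 of them are shown for comparison, in order of their AdEts1 reads.

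Klf5 distal, chr14:99324664-99324703: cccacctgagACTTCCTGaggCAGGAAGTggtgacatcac

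Esp15 distal, chr17:39651682-39651721: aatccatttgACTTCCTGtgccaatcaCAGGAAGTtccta

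Unnamed distal region, chr6:117627520-117627559: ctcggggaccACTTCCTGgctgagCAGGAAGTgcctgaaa

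Unnamed intronic region, chr8:108595877-108595916: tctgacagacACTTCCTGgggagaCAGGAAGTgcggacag

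Of all 5, 2 held 5 or more reads in a precipitated library; by the call of size used for the Klf genes further on, the Klf5 region was higher with AdEts1 and the one not shown was lower. The Esp15 and chromosome 6 regions each held 2 reads with AdEts1 and 0 with AdGFP, and the chromosome 8 region held 0 with AdEts1 and 2 with AdGFP.

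The Klf5 distal region held 169 reads with AdEts1, 8 with AdGFP and 4 in the input. Scaled to the library totals these are 87.2, 4.51 and 1.02 RPM. As fragments they are 85 (95% exact Poisson interval 67.9 to 105), 4 (1.09 to 10.2) and 2 (0.242 to 7.22). The AdEts1 library is high here, and both other libraries are low. The ratio of AdEts1 to AdGFP was 19.4 (7.33 to 73.1), and the authors' deposited table gives a log2 fold change of 4.11. Against the input it was 85.8 (23.2 to 724) with AdEts1 and 4.43 (0.636 to 49) with AdGFP, an interval that spans 1. In the authors' deposited table of AdEts1 peaks, the first summit had a fold enrichment of 15.2 (whether the input served as the background is not stated) and a −log10 q of 24.97, the second 6.95 and 5.46. The fold of the first summit ranked 4 of 237322. The AdGFP list has no peak there.

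By its ratio the region ranked 1 of all 543367 compared regions, with counts under 3 raised to a floor of 3 reads; the next ratio was 11.9. By AdEts1 reads it ranked 54, and 16 of 285811 distal intergenic regions. The 53 other regions with at least as many reads were unlike it in the other libraries: they held at least 20 reads each in the input (median 173), a median of 516 reads with AdGFP, and ratios between 0.599 and 2.13 with a median of 1.01. These ranks rest on the counts for which the region was chosen.

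No other region had a closely similar pattern over the 3 libraries. Likeness was measured as the Euclidean distance of log2(count + 1) across them, and no region lay within a distance of 1. The nearest of all was a distal intergenic region without a gene name on chromosome 9, at a distance of 2.08, with 40 reads with AdEts1, 6 with AdGFP and 4 in the input. Among distal intergenic regions of named genes, the nearest belonged to Itga11, an integrin subunit gene, at a distance of 2.61, with 40 reads with AdEts1, 25 with AdGFP and 6 in the input. Tmem125 followed at 3.08 (42 reads with AdEts1, 15 with AdGFP and 22 in the input), then P4ha2 and Hif1an at 3.32 and Efnb1 at 3.46. None of these 5 regions, all narrower than the Klf5 one, held an ETS word, which occurs in 1.89% of all compared regions.

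The rest of the Klf5 locus was thinly read in each library. Of the 8 Klf5 regions 5 were called with AdEts1 alone, 1 with both viruses and 2 with AdGFP alone; over the whole table these classes make up 37.5%, 6.13% and 56.4%. The 7 other Klf5 regions held 15 reads with AdEts1 and 8 with AdGFP, and none in the input. The promoter region over the start site (chr14:99298679-99299424) held 5 reads with AdEts1 and 4 with AdGFP, a ratio of 1.15 (0.157 to 16.5), and was called with both viruses. In the authors' deposited table its fold was 3.71 with AdEts1, at a −log10 q of 1.54, and 2.81 with AdGFP, at 0.56. These values belong to different peaks that overlap only at their ends. Their summits lay at chr14:99299294 with AdEts1 and chr14:99298884 with AdGFP. The other promoter regions, 282 and 1896 bp before the cited start, each held 0 reads with AdEts1 and 2 with AdGFP. A region in the 3′ UTR held 4 with AdEts1 and 0 with AdGFP, a ratio of 1.22 when the 0 is set at 3 reads. The remaining distal regions, 3.29 kb before the cited start and 16.1 and 19.6 kb after it, each held 2 reads with AdEts1 and 0 with AdGFP. At these 7 regions a difference between the viruses was not detectable at this depth. Within 100 kb on either side of the distal region, the 45 other listed regions of any name held at most 9 reads with AdEts1 (median 1), at most 19 with AdGFP (median 2) and at most 4 in the input.

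**Figure D2:**
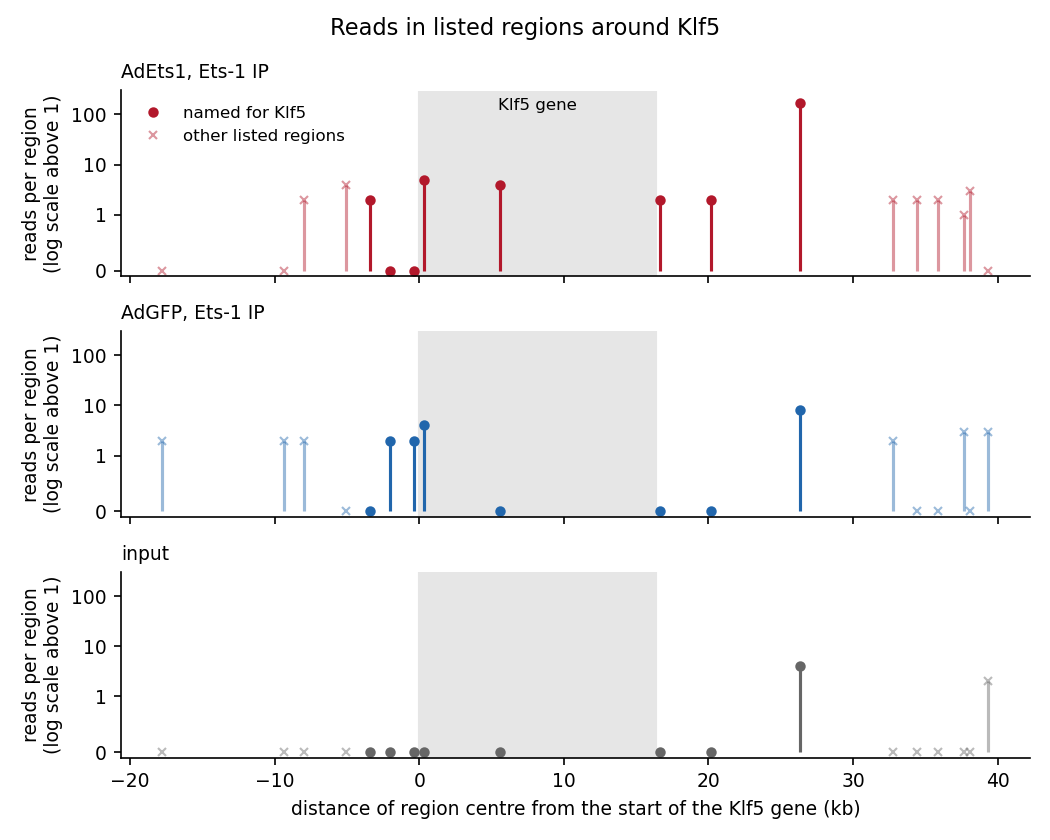
Reads per listed region (vertical axis, log scale above 1) against the distance of the region centre from the start of the Klf5 gene in kb, for AdEts1, AdGFP and the input. Circles are regions named for Klf5, crosses are other listed regions and the grey band is the gene; the distal region stands at 169, 8 and 4 reads in the 3 panels.

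Among the other family members no region came near the Klf5 distal one. Outside it the highest count at any member was 10 reads with AdEts1, 6 with AdGFP and 5 in the input. The distal region alone held 53.3% of the 317 AdEts1 reads in the 123 regions. With it the summed reads were 317 with AdEts1 and 187 with AdGFP, a ratio of 1.55 (1.17 to 1.93). Without it they were 148 with AdEts1 and 179 with AdGFP, a ratio of 0.757 (0.576 to 1.05), close to the 0.781 of all compared regions together. The other 16 Sp and Klf genes, of which 14 have regions, held 162 reads with AdEts1 and 201 with AdGFP in 137 regions, a ratio of 0.738 (0.577 to 1.03). The summed ratio of the members thus lay above 1 with the Klf5 distal region, which was chosen for its AdEts1 reads, and below 1 without it. The interval without it spans 1.

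**Figure D3:**
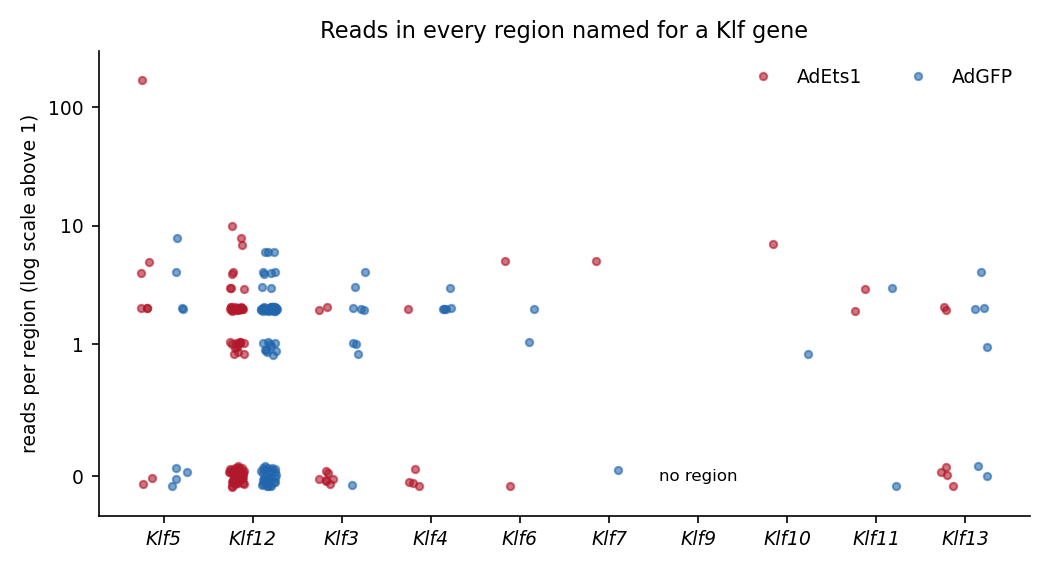
Reads in every region named for a Klf gene (vertical axis, log scale above 1), for AdEts1 (red, left) and AdGFP (blue, right), with points spread slightly to show overlap. The Klf5 distal region at 169 reads is the only point above 10.

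Taking 5 or more reads in either precipitated library as the minimum, 11 member regions could be compared by size of ratio. A ratio of 2 or more in favour of AdEts1 was reached by 5 of them, against 12.3% of the 22425 such regions in the table, and a ratio of 0.5 or less by 3, against 36.4%. For this call, though not for the ratios printed with an interval, counts of 1 and 2 were also raised to 3. Klf5 was chosen from this same contrast, so these counts are a description. The floor makes the directions unequal: 6 reads against 0 give 1.83 in favour of AdEts1 but 0.458 in the other direction. Of the 5 higher regions, 1 is the Klf5 distal region, 3 belong to Klf12 and 1 to Klf10, and all 3 lower regions belong to Klf12. Of the 12 listed regions of other Sp and Klf genes that met the minimum, 0 were higher and 1, of Sp3, was lower. The highest count at those genes was 6 reads with each virus.

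Klf12, a transcriptional repressor first described at the gene of AP-2α, had the most regions and is the longest member. The gene spans 414 kb on the minus strand (chr14:99870632-100284679). Its 89 named regions amount to 21.5 per 100 kb, and all 100 listed regions inside it, named or not, to 24.2. Over chromosomes 1 to 19 and X, listed regions of any name amount to 20.6 per 100 kb. Introns hold 86 of the 89. Both precipitated libraries were as thin along the gene as elsewhere: 72 of the 89 regions held 2 or fewer reads in each, against 80.8% of all compared regions. The sums were 101 reads with AdEts1, 128 with AdGFP and 2 in the input. The ratio of the sums was 0.723 (0.537 to 1.11). Over the named regions alone, the AdEts1 sum was lowest in intron 1, with 4 reads against 16 with AdGFP. The sums were closest in intron 3, with 34 reads with AdEts1 and 38 with AdGFP. Introns 6 and 7, which hold the regions of 7 and 10 reads, had more reads with AdEts1 (15 and 18) than with AdGFP (7 and 9). A further 11 listed regions inside the gene, 37.2 to 95.5 kb from its start, name no gene in the table and are not counted in these sums. They lie within intron 1 and held 12 reads with AdEts1 and 20 with AdGFP. With them the lowest AdEts1 sum would be that of intron 4, with 5 reads.

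The strongest Klf12 region with AdEts1 lay in intron 7 of 7 (chr14:99877431-99877689), with 10 reads, against 0 with AdGFP and 0 in the input. That is a ratio of 3.05 with the 0 set at 3 reads; the authors' deposited table gives it a fold of 3.71 at a −log10 q of 1.54. A region in intron 3 (chr14:100029678-100030311) held 8 reads with AdEts1 and 0 in both other libraries, a ratio of 2.44 reckoned the same way. Another, in intron 6 (chr14:99931754-99932348), held 7 reads with AdEts1 and 2 with AdGFP and was called with both viruses, and its ratio of 3.21 had an interval of 0.363 to 180. Its summits lay apart, at chr14:99932152 with AdEts1 and chr14:99931866 with AdGFP. In the other direction 3 regions, in introns 5 and 3, each held 0 reads with AdEts1 and 6 with AdGFP, a ratio of 0.458 with the 0 set at 3 reads. The sequences at the summits of the 2 regions with 8 or more reads are shown beside the Klf5 site. Neither holds an ETS word, as is usual: windows of 100 bp hold one at 0.664% of all AdEts1 summits.

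Klf12 intron 7 summit, chr14:99877508-99877607: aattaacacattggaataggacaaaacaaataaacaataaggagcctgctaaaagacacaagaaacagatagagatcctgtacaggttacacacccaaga

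Klf12 intron 3 summit, chr14:100030107-100030206: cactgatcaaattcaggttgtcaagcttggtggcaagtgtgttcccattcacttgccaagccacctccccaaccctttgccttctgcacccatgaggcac

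ETS words occurred in 2 Klf12 regions, a promoter and an intronic one, each with 0 reads with AdEts1 and 2 with AdGFP. The promoter annotation refers to an internal start, as that region lies 341 kb from the start of the gene. The words are shown with 11 bases on either side.

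Klf12 promoter word, chr14:99943353-99943382: agcacagccccACTTCCTGctgatctgcag

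Klf12 intron word, chr14:100257885-100257914: gcaagagtattACTTCCTGaaatgacaatg

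**Figure D4:**
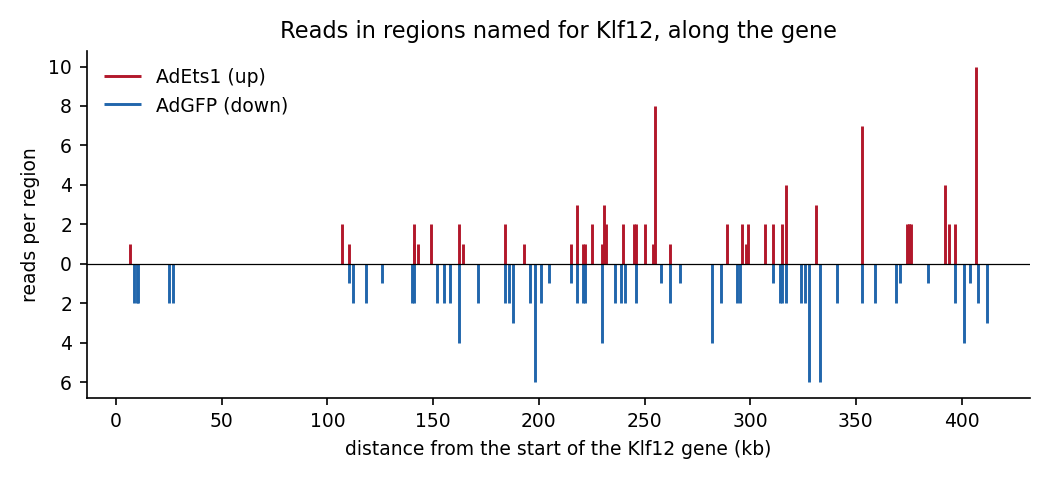
Reads per region named for Klf12 (vertical axis) against the distance from the start of the gene in kb, with AdEts1 drawn upward and AdGFP downward. The highest bar upward is 10 reads and the deepest downward 6, and no region is named for Klf12 in the 37.2 to 95.5 kb stretch whose listed regions carry no gene name.

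Klf10 and Klf11, both known as genes that respond to TGF-β, had promoter regions called with AdEts1 alone. At Klf10 the region (chr15:38300733-38300981, 27 bp before the start) held 7 reads with AdEts1, 1 with AdGFP and 5 in the input. The ratio to AdGFP was 6.41 (0.363 to 180) and that to the input 2.84 (0.458 to 18.5), so both intervals span 1. It held the most input reads of any member region, and only 7 of the 123 held an input read at all. At Klf11, a regulator of the insulin gene in β cells, the promoter region held 3 reads with AdEts1 and 0 with AdGFP, and a distal one held 2 with AdEts1 and 3 with AdGFP. That promoter region (chr12:24653024-24653334) lies inside the gene, which starts at chr12:24651274.

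Klf3, Klf4 and Klf13 were covered mostly by AdGFP calls with few reads. Klf3, a repressor that works with the corepressor CtBP, had 9 regions, 8 of them called with AdGFP alone, with 4 reads in all with AdEts1 and 16 with AdGFP. Of these, 6 lay 16.4 to 35.1 kb before the start, in an intron of another annotated transcript, and held 0 reads with AdEts1 and 1 to 4 with AdGFP. Its best-read promoter regions held 2 reads with AdEts1 each, and 1 and 0 with AdGFP. Both lie inside the gene, near internal starts, at chr5:64814081-64814318 and chr5:64820873-64821121, while the gene starts at chr5:64803388. The ratio of the Klf3 sums was 0.229 (0.0195 to 0.86). Because 8 of the 9 regions were listed through an AdGFP call alone, the listing itself favours a ratio below 1. The interval does not cover this, so no difference at Klf3 is read from it. Calls with AdGFP alone also outnumber those with AdEts1 alone for Klf12, Klf13, the family and the other Sp and Klf genes. The listing bears on their summed ratios in the same way. Klf4, one of the factors used to reprogram cells to pluripotency, had 5 regions, each called with AdGFP alone, with 2 reads in all with AdEts1 and 11 with AdGFP. Its best-read distal region for AdEts1 held 2 reads with each virus, and that for AdGFP held 0 with AdEts1 and 3 with AdGFP. Its promoter region held 0 reads with AdEts1 and 2 with AdGFP. Klf13, known as an activator of RANTES in human T lymphocytes, had 6 regions with 4 reads with AdEts1 and 9 with AdGFP, a ratio of 0.407 (0.0349 to 2.24). Its best-read promoter region held 0 reads with AdEts1 and 4 with AdGFP. That region, at chr7:63936318-63936908, lies inside the gene, whose start is at chr7:63938915 on the minus strand. Of the 123 member regions, 43 were called with AdEts1 alone (35%), 11 with both viruses (8.94%) and 69 with AdGFP alone (56.1%), near the shares over the whole table.

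Klf6, known as a tumour suppressor, had a region in its 3′ UTR with 5 reads with AdEts1 and 2 with AdGFP, called with both and with a ratio of 2.29 (0.221 to 144). The summits of that region lay apart, at chr13:5869963 with AdEts1 and chr13:5870234 with AdGFP. A distal region held 0 reads with AdEts1 and 1 with AdGFP. Klf7, which acts in neuron development, had a single region 7.08 kb before its start with 5 reads with AdEts1 and 0 with AdGFP, a ratio of 1.53 with the 0 set at 3 reads. Klf9, a gene that responds to glucocorticoids and thyroid hormone, had no region named for it. The nearest-gene names miss part of these genes: 8 regions lie inside Klf9 and 8 inside Klf7 that name no gene, and of 13 inside Klf13 the table names 4 for it. Those inside Klf9 held at most 6 reads with AdEts1 and 4 with AdGFP, and those inside Klf7 at most 4 with each virus.

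**Figure D5:**
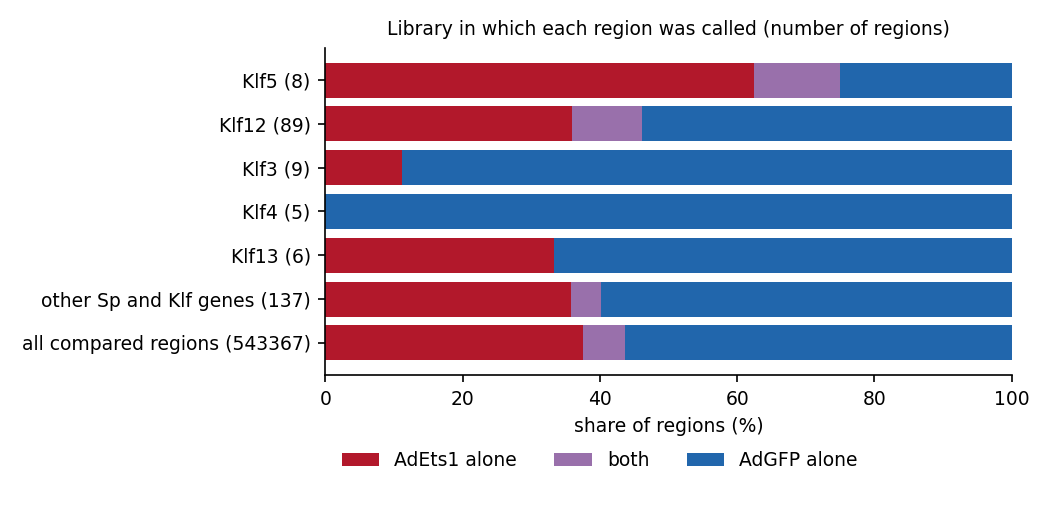
Share of regions (horizontal axis, %) called with AdEts1 alone, with both viruses or with AdGFP alone, for the members with 5 or more regions, the other Sp and Klf genes and all compared regions, with the number of regions in brackets. Klf12 lies near all regions, while the bars of the other members rest on 5 to 9 regions each.

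Most peaks of the Klf genes were as weak as the rest of each list. The median fold, as the authors deposited it, was 1.86 for the 55 member peaks with AdEts1, the same as over all 237322 peaks, and 1.87 for the 80 member peaks with AdGFP and for all 339856. A q of at most 0.05 was reached by 4 of the 55 AdEts1 peaks, against 1.38% of that list. It was reached by 0 of the 80 AdGFP peaks, against 0.827%. The 4 were 2 summits of the Klf5 distal region, the Klf5 promoter and Klf12 intron 7. The distal region was chosen for its AdEts1 counts, so its 2 summits say nothing about an excess over 1.38%. Of the 54 member intervals in the AdEts1 list, 11 were overlapped by an AdGFP interval by at least 1 bp, or 20.4%, against 14.1% of all intervals; of the 80 in the AdGFP list, 11 were overlapped, or 13.8%, against 9.88%. In 200 bp windows at summits, an ETS word occurred at 1 of the 55 AdEts1 peaks, the Klf5 distal one, against 1.39% of all peaks of that list on chromosomes 1 to 19 and X, and at 2 of 80 AdGFP peaks, against 1.32%. The word GGGCGG, of the kind Sp and Klf factors bind, occurred at 3 of the 55 AdEts1 peaks, against 1.79% of all in that list, and at 4 of the 80 AdGFP peaks, against 1.59%. CACCC occurred at 27.3% of the AdEts1 peaks, against 26% of all in that list, and at 28.7% of the AdGFP peaks, against 25.5%. The Klf5 distal region itself held neither of these words.

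Promoter sequences in RefSeq (GRCm38.p6, 250 bases before to 50 after the start) were matched for 8 of the 10 genes, all but Klf5 and Klf10. The Klf12 entry, at chr14:100149747-100150046, lies inside the gene and belongs to an internal start, not to the gene start used above. None of the 8 held an ETS word, which occurs in 7.12% of the 32619 promoters searched. GGGCGG was found in 6 of them, against 35.9% of all, and CACCC in 5, against 57.7%. Klf3 had the most GGGCGG matches, with 6, and each of the 8 held at least 1 of the words.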

How the data were processed

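FastQC, Trimmomatic, BWA 0.7.12, MACS2 2.1.0 and build mm10 are named in the submitters' processing notes; settings, and whether the input was the control in peak calling, were not stated in these sources. Per the labels' protocols, chromatin was fixed in 1% formaldehyde for 10 min. Each peak list holds the authors' fold enrichment (a ratio), −log10 p and −log10 q and a score, per the file headers. The comparison table holds the authors' counts, RPM of the count plus 1, ratios of RPM and a log2 fold change, per the file headers. Totals were recovered from counts and RPM. Among nonzero counts 72%, 74.5% and 19% were even (AdEts1, AdGFP, input). Intervals used fragments of 2 reads, rounded up, which the even counts bear out for the precipitated libraries but not for the input.

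Members were regions whose deposited gene name is 1 of the 10 genes. Members and lists were chosen with earlier results of these data known. Described singly were Klf5 regions with 3 or more reads or at the promoter, and regions of other members with 8 or more reads. So were the best-read region and promoter of each, and the 5 genes with the most similar distal region among those ranked. Other regions past the minimum or with inverted words were named after their values were seen. The identity and counts of one region with inverted words are not reported here. Groups hold 1 library each, so no test was run. Alternatives were other scaling, minima, ratios, overlaps, q thresholds, windows and words. Intervals, calls and word searches were tested on simulated data. For intervals and calls, only simulated regions with more reads than most member regions hold were checked, without PCR copies. That check does not cover the thinly read regions. Gene positions come from GENCODE M21. Software was matplotlib 3.10.9, pysam 0.24.0, scipy 1.17.1, pandas 2.3.3, numpy 2.4.6 and Python 3.11.15.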

Additional observations from a re-analysis of the deposited data

How the results depend on the processing

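No paired analysis was possible because every condition has 1 library. The Klf5 distal ratio of 19.4 became 24.8 with library sizes from listed regions and 17.3 with 1 added to both counts. Its AdEts1 to input ratio of 85.8 became 5.94 with library sizes from listed regions, because these hold 42.8% of AdEts1 reads and 2.96% of input reads. Of 55 AdEts1 peaks of the Klf genes, 4 passed a q of at most 0.05, and of 80 AdGFP peaks 0 did; 54 and 77 lay within 100 kb of a start. The 11 overlapped intervals became 5 by reciprocal overlap of 50% and 5 by summits within 100 bp. Higher regions, 5 in number, became 3 with a minimum of 8 reads, 2 at a ratio of 3, 5 with no minimum and 6 with 1 added; lower regions, 3 in number, became 0, 0, 3 and 3. With the core GGAA in place of the ETS words, 45 of 55 summits held a match against 1; windows of 100 bp also gave 1. Without the Klf5 distal region, an alternative chosen after seeing the data, the summed ratio of 1.55 became 0.757.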

Other observations

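Next after the Klf5 distal region by ratio stood a region named for Iapp, the gene of islet amyloid polypeptide, which β cells secrete together with insulin. It lies in an intron of a neighbouring transcript (chr6:142305069-142306402) and held 39 reads with AdEts1, 3 with AdGFP and 8 in the input, a ratio of 11.9 (2.23 to 80.8). It holds no ETS word. It was chosen after its values were seen.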
